A study of Mus musculus with 80 samples.

Results

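The genes described here encode the proteins of the cytosolic ribosome. They were taken from a table of read counts in mouse liver nuclei by their symbols: names that start with Rpl or Rps followed by a digit, together with Rplp0, Rplp1, Rplp2 and Rpsa, leaving out the Rps6k kinases. The rule gave 86 of 20105 genes. Of these, 43 encode proteins of the large subunit, 3 the P0, P1 and P2 proteins of the ribosomal stalk, and 31 proteins of the small subunit, together 77 core genes. Another 8 are paralogs that can replace or resemble a core protein (Rpl10l, Rpl22l1, Rpl36al, Rpl37rt, Rpl39l, Rpl3l, Rpl7l1 and Rps27l). Rps19bp1 matched by its letters and encodes a protein that binds Rps19, not a ribosomal protein.

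A ribosome is built in the nucleolus from ribosomal RNA and the core proteins, which are needed in balanced amounts. Their mRNAs start with a stretch of pyrimidines, the 5' TOP motif, through which the nutrient-sensing kinase complex mTORC1 and the protein Larp1 set how much of each mRNA is translated. In liver, feeding raises and fasting lowers this translation, and the amount of nuclear RNA from the genes is a separate, earlier step that the counts here describe. Many introns of these genes also carry small nucleolar RNAs (snoRNAs), which guide the modification of ribosomal RNA.

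The libraries came from female mice of a hepatocyte line (HEP-INTACT) and a macrophage line (MAC-INTACT), in which nuclei of 1 cell type carry a tag and are purified by it. Mice were fasted from ZT12, the start of the dark phase, for 3, 8, 16 or 24 h, which ended at ZT15, ZT20, ZT4 and ZT12, and mice fed ad libitum were taken at each of the same times. There were 4 libraries of tagged nuclei for each line, time and feeding state, 64 in all. Another 16 libraries held liver nuclei that were not purified, made from pools of 4 mice. The pools are named Input in the count columns. Their titles do not say whether the same mice also gave tagged libraries, and the tests used no such pairing. The labels do not say which promoter drives the tag or how many mice gave a tagged library, and p-values therefore cover only the spread among these libraries, which may be partly technical.

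Total counts were 12597786 to 30089561 in tagged hepatocyte libraries, 14968505 to 44694933 in tagged macrophage libraries, and 13246494 to 35514304 in the pools. The counts cover whole gene bodies, introns included, so a value is nuclear RNA of any stage, not mature mRNA. Levels are CPM (counts scaled to a common library size) after scaling by the trimmed mean of M values (TMM). The purified nuclei were checked with marker lists. All 11 Kupffer cell and macrophage markers together reached 3689 to 7018 CPM in tagged macrophage nuclei, 196 to 283 CPM in the pools and 30.3 to 79.4 CPM in tagged hepatocyte nuclei. The 10 hepatocyte markers summed to 9396 to 28789 CPM in tagged hepatocyte nuclei and still to 3967 to 19385 CPM in tagged macrophage nuclei, so the macrophage libraries also held hepatocyte transcripts. None of the markers in either list was at 0 throughout a fraction. One macrophage library, fasted 3 h replicate 3, stood apart in the ribosomal protein genes and beyond them, as described with that comparison.

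Of the 86 genes, 79 had enough counts to be tested in every comparison, 73 of them core genes. The other 7 averaged under 3 counts in a library. Among them Rpl10l was at 0 in all 80 libraries, and Rpl39l and Rpl3l averaged 0.338 and 2.81 counts; these paralogs are known from testis or striated muscle. The remaining 4, Rpl26, Rpl30, Rpl34 and Rps27, are core genes that every cell uses, and averaged 0.125, 0.463, 2.21 and 0.0125 counts. Their low values are therefore no sign that the genes were silent, and the labels do not say how reads shared by close copies were treated.

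The genes are short. Their median length was 3102.5 bp, against 16918 bp for all genes of the table, and exons made up a median of 56.1% of the gene body. They lie on 19 chromosomes. In the GENCODE annotation, 30 of them hold 58 snoRNAs. As counts cover whole gene bodies, reads of these snoRNAs can enter the value of the gene that holds them. Reads of 6 genes (Rpl31, Rpl32, Rpl35, Rpl5, Rps25 and Rps27a) can be shared with a gene on the opposite strand if counting did not use strand, which the sources do not say.

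The promoters of 66 of the 86 genes were present in a RefSeq promoter table (GRCm38.p6, the same build as the mm10 counts), which gives 300 bases around each start. The windows below run from 80 bases before the start to 20 bases from it, 5' to 3' on the gene's strand. They show the genes with the highest fasting values in hepatocyte nuclei at 16 h (Rpl10a, Rps9, Rps28), a gene that changed at 3 h (Rps18), and the genes that stood highest in hepatocyte over macrophage nuclei or per length (Rpl5, Rpsa, Rps2). Capitals mark a run of at least 6 C or T letters within 20 bases of the start, the letters CCGGAA on either strand (the core bound by ETS family factors), AAGATGG on either strand (the core bound by YY1), or the palindrome that Rps28 shows in capitals. Matches can overlap, as the paired CCGGAA letters do in Rps18.
Rpl10a, chr17:28328391-28328490, plus strand: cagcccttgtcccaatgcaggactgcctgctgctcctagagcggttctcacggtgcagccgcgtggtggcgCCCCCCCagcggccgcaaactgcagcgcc
Rps9, chr7:3703961-3704060, plus strand: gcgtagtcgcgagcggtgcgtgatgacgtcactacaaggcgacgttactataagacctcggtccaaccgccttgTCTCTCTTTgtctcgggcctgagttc
Rps28, chr17:33824543-33824642, minus strand: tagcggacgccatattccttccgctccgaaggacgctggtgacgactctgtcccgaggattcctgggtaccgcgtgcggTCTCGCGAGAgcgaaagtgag
Rps18, chr17:33955646-33955745, minus strand: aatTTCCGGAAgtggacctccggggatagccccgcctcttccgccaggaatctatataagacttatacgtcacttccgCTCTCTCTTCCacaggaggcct
Rpl5, chr5:107900448-107900547, plus strand: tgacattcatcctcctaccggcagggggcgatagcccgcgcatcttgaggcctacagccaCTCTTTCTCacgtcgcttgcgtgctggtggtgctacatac
Rpsa, chr9:120127686-120127785, plus strand: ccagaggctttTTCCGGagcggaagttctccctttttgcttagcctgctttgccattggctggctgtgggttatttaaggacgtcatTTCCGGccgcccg
Rps2, chr17:24719983-24720082, plus strand: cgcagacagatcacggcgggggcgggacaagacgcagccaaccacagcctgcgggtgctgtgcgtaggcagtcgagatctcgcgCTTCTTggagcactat

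Over the full 300 bases, 32 of the 66 promoters (48.5%) held CCGGAA, against 14.9% of all 32851 promoters in the table. The palindrome stood in 5 of 66 (7.58%), against 0.466% of all, and AAGATGG in 10 of 66 (15.2%), against 6.34%. A pyrimidine run near the start was present in 40 of 66 (60.6%), against 37.5% of all. Of the windows shown, Rpl10a, Rps9, Rps18, Rpl5 and Rps2 hold such a run, and Rpsa and Rps28 do not. Of the promoters of members called higher in hepatocyte nuclei at 16 h of fasting, 10 of 25 held CCGGAA and 16 of 25 the pyrimidine run, against 19 of 35 and 21 of 35 of the tested members not called. The RefSeq start was the start of the counted gene for 53 of the 66, and lies 64 bases from it for Rps28 and 24 bases from it for Rps18. A match describes the letters only and is not evidence that a factor binds there.

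In fed mice the core genes spanned more than an order of magnitude in level per length. The median of the 73 tested core genes was 2.73 CPM per kb in hepatocyte nuclei, with a range of 0.771 to 11.4, and 2.18 CPM per kb in macrophage nuclei, with a range of 0.619 to 6.22. Core genes that hold a snoRNA had a median of 3.39 CPM per kb in hepatocyte nuclei against 2.29 for those without one, and 2.61 against 2.05 in macrophage nuclei. The part of snoRNA reads in these values was not tested. The highest in hepatocyte nuclei was Rpl5, which carries 5S ribosomal RNA to the ribosome and binds Mdm2, at 11.4 ± 3.66 CPM per kb (SD, n = 16). Rps2 followed with 11.0 ± 2.61 and Rpsa, also known as the laminin receptor, with 9.04 ± 1.78 CPM per kb. Rpl5 and Rps2 did not differ beyond their spread. In macrophage nuclei the order opened with Rpl3, which helps form the peptidyl transferase centre, at 6.22 ± 1.02 CPM per kb, then Rps2 at 6.08 ± 0.581 and Rps9, a protein of the decoding side, at 6.05 ± 0.753, and these 3 also lay within each other's spread. Among the paralogs Rpl7l1 was highest per length, at 2.66 ± 0.283 CPM per kb in hepatocyte and 2.19 ± 0.128 in macrophage nuclei.

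The first comparison asks how fasting changed these genes in hepatocyte nuclei. At 16 h the ribosomal protein genes stood higher in fasted mice almost as a body: 77 of the 79 log2 differences were positive, among them all 73 of core genes, with a median of 0.49 against 0.01 for all 12942 genes tested. With edgeR's quasi-likelihood test and adjustment over all genes (called means adjusted p under 0.05), 30 rose and none fell, while 9.55% of all genes were called higher and 8.55% lower (18.1% in either direction). The 30 were 16 proteins of the large subunit, 11 of the small subunit, 2 of the stalk (Rplp0 and Rplp2) and the paralog Rpl22l1, and 13 of them hold a snoRNA. The called genes ranged from 0.46 to 0.93 on the log2 scale. The 49 others ranged from -0.11 to 0.62. Fasted and fed libraries did not overlap, with fasted higher, for 18 members, and with fasted lower for 0, where 7.07% and 8.62% of all genes did so.

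Rps9 showed this most evenly. Its 4 fed libraries at 16 h were at 9.62, 9.68, 10.4 and 12.2 CPM and its fasted libraries at 15.3, 17.7, 20.7 and 23.4 CPM. The groups were apart, and the difference was 0.90 ± 0.19 on the log2 scale (SE, adjusted p = 0.0012). Rps28, the small subunit protein at the mRNA exit, was at 2.08, 2.76, 2.96 and 3.79 CPM in fed and 4.01, 4.85, 4.99 and 7.23 CPM in fasted libraries (log2 0.88 ± 0.19, adjusted p = 0.0016). Here too every fasted library lay above every fed one. Rpl10a, a protein of the L1 stalk, had the highest estimate, 0.93 ± 0.31 (adjusted p = 0.038), but its libraries overlapped. Its fed values were 8.69, 9.15, 9.77 and 18 CPM and its fasted values 13.8, 14.6, 20.4 and 36.2 CPM. Rpl3 rose by 0.84 ± 0.22 (adjusted p = 0.0091), from 16.8, 17.7, 20 and 25.1 CPM to 26.6, 26.9, 34.1 and 52.9 CPM, without overlap.

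Other members of known role differed among themselves at 16 h. Of the stalk proteins, which recruit elongation factors, Rplp0 rose by 0.66 ± 0.22 (adjusted p = 0.035) and Rplp2 by 0.73 ± 0.22 (adjusted p = 0.02), while Rplp1 was at 0.23 ± 0.32. Rps19, whose human counterpart is the gene most often mutated in Diamond-Blackfan anaemia, rose by 0.58 ± 0.15 (adjusted p = 0.0096), and the X-linked Rps4x by 0.58 ± 0.18 (adjusted p = 0.022). Rps6, the substrate of the S6 kinases downstream of mTORC1, was at 0.47 ± 0.17 with adjusted p = 0.058 and so did not pass. Rpl5 and Rpl11, which form the particle with 5S ribosomal RNA, were at 0.04 ± 0.19 and 0.28 ± 0.19, and Rpsa at 0.19 ± 0.15. Rpl22l1 passed the test at 0.65 ± 0.20 (adjusted p = 0.023), whereas its parent Rpl22 was at 0.35 ± 0.14 (adjusted p = 0.072). The difference between the pair was not tested. Rps19bp1, the gene that is no ribosomal protein, was at -0.08 ± 0.23.

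**Figure D1:**
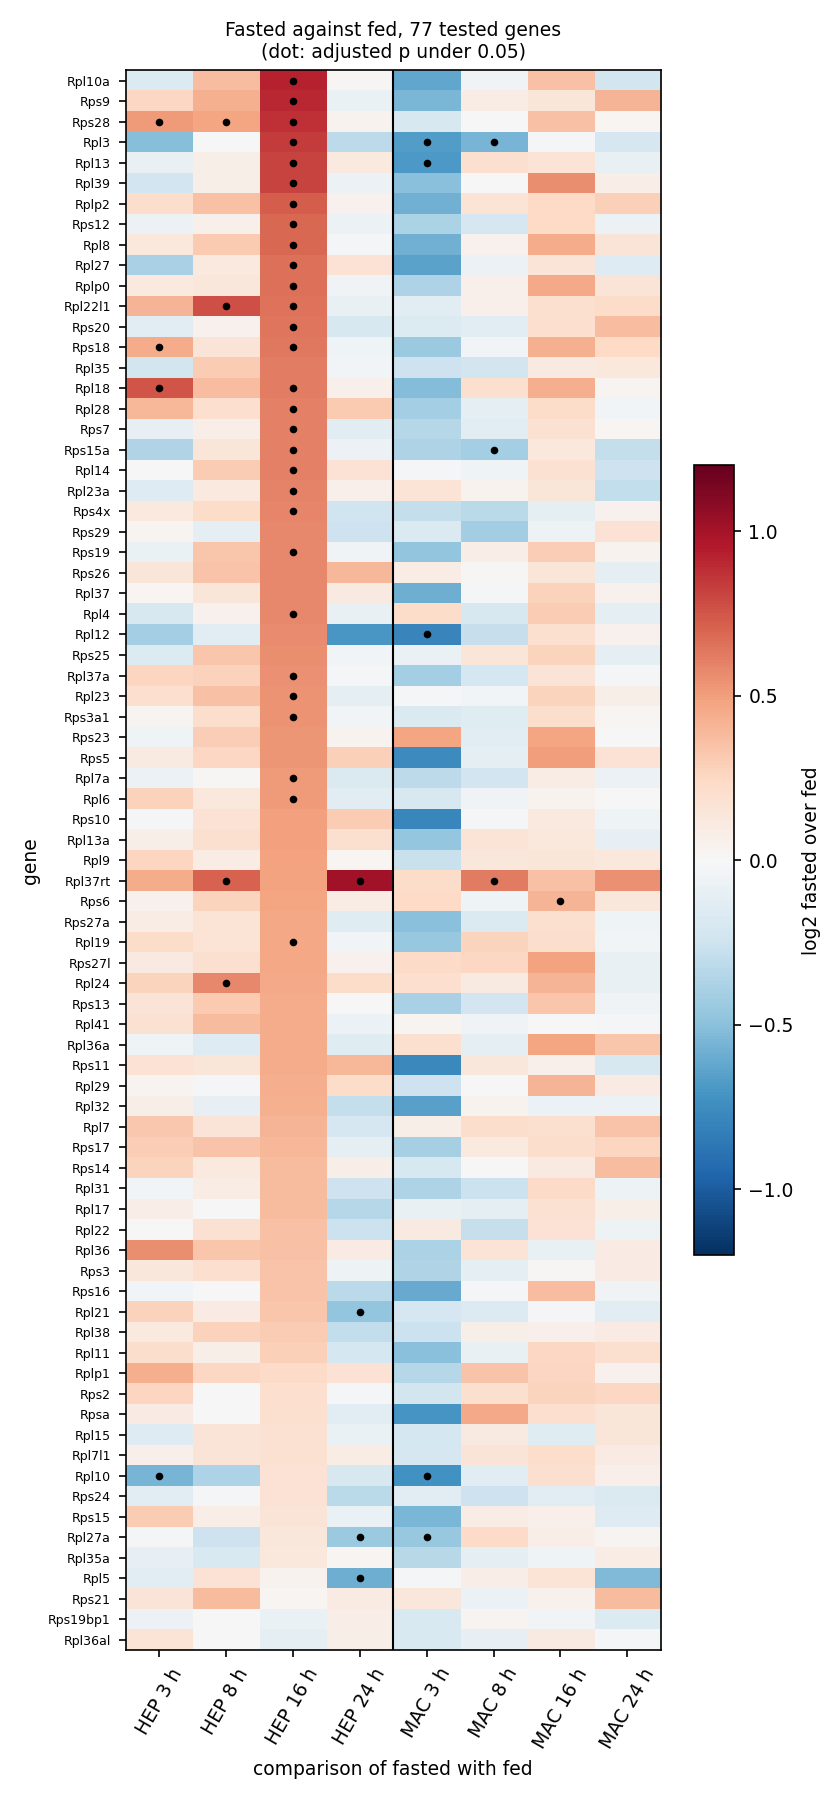
Log2 difference of fasted over fed tagged nuclei for 77 of the 79 tested genes (rows, ordered by the hepatocyte value at 16 h) in the 8 comparisons (columns; HEP, hepatocyte nuclei; MAC, macrophage nuclei). Dots mark adjusted p under 0.05; the hepatocyte column at 16 h holds 29 of them, all positive, and the macrophage column at 3 h holds 5, all negative.

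The size of the count at 16 h depended on single libraries. The 77 core genes summed to 654, 682, 700 and 723 CPM in the fed and to 767, 768, 933 and 1213 CPM in the fasted libraries. The groups did not overlap, but fasted replicate 3 was far above the rest. Without it 5 members were called, all higher, of 11.4% of all genes called, and the median difference of the members was 0.30, with 74 of 79 positive. Leaving out any other library gave 9 to 46 called members, all higher, and medians from 0.45 to 0.60. In brackets is the percentage of all genes called in the same fit, in either direction. The count was 9 without fed replicate 1 (13.5%), 13 without fed replicate 4 (13.8%) and 15 without fasted replicate 4 (15.8%). It was 19 without fed replicate 2 (12.5%) and 26 without fed replicate 3 (18.2%). It was 40 without fasted replicate 1 (19.2%) and 46 without fasted replicate 2 (19.5%). In the fits with 5 and 9 calls, the members' share of the 79 was under that of all genes. A fit to the 8 libraries of 16 h alone called 1 member, Rps9 (0.90, adjusted p = 0.016), among 885 genes called in all. The numbers in the sample titles of the tagged hepatocyte libraries are consecutive, and the titles name no batches. These numbers were split here into 3 runs, each starting where the order of times begins again. Within each run the fasted sum was higher, by 0.20 (2 libraries against 2), 0.75 and 0.41 (1 against 1) on the log2 scale.

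Other lists of genes showed where the members' values sat among related genes. Of 20 further translation genes with a TOP motif, such as elongation factors, 7 rose and 0 fell at 16 h, with a median of 0.37. They included Pabpc1, the poly(A)-binding protein (0.77 ± 0.22), the nucleolar chaperone Npm1 (0.66 ± 0.15) and Gnb2l1, which encodes the ribosomal scaffold RACK1 (0.59 ± 0.19). Of 50 genes for ribosomal RNA synthesis and ribosome assembly, 13 rose and 0 fell, with a median of 0.42, among them Rrp12 (1.65 ± 0.47) and Utp18 (0.89 ± 0.18). Of 77 mitochondrial ribosomal proteins, 3 rose and 1 fell, with a median of 0.13. Among 30 genes of the mTORC1 pathway and TOP mRNA control, 2 rose and 5 fell (median -0.04), including Nprl3, part of the GATOR1 complex that restrains mTORC1 (0.74 ± 0.15), Tsc1 (-0.55 ± 0.16) and Sesn3 (-0.76 ± 0.21). Of the 8 genes of Myc and its network 0 rose and 1 fell, Mxd1 (-0.60 ± 0.18). No row of the table belongs to the noncoding snoRNA host genes such as Gas5. The 1254 other tested genes of at most 5 kb had a median of -0.04, against 0.49 for the 67 members of that length. The summed stellate cell markers (all 6 in the table, none at 0) were 31 to 50.3 CPM in the fasted and 82.8 to 135 CPM in the fed hepatocyte nuclei at 16 h. Their part in the result was not tested. Hepatocyte markers overlapped, at 10483 to 17211 against 13941 to 15665 CPM, and so did the 7 sinusoidal endothelial markers, at 104 to 155 against 124 to 162 CPM.

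At the other times a smaller share of the members than of all genes was called in hepatocyte nuclei. At 3 h, 3 rose and 1 fell (median 0.09) while 19.5% of all genes were called higher and 20.4% lower (39.9% in either direction). The libraries did not overlap for 6 members higher and 7 lower in fasted mice, against 17.6% and 23.5% of all genes. Rpl18 rose by 0.76 ± 0.19 (adjusted p = 0.0024), from 3.12, 3.41, 3.51 and 3.92 CPM fed to 4.69, 5.9, 5.94 and 6.05 CPM fasted, with no overlap. Rps28 rose by 0.51 ± 0.19 (adjusted p = 0.029) and Rps18 by 0.44 ± 0.15 (adjusted p = 0.019), and neither overlapped between the groups. Rpl10, which is loaded last onto the maturing large subunit, fell by 0.55 ± 0.16 on the log2 scale (adjusted p = 0.0075), from 14.6, 15.9, 16.6 and 17.1 CPM to 8.51, 9.46, 11.4 and 12.6 CPM. The direction of the members' median at 3 h depended on the scaling: with library totals in place of TMM, an alternative chosen after seeing the data, it was -0.11, with 1 member higher and 3 lower. Without fed replicate 2 the count was 2, where 36.1% of all genes were called.

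At 8 h, 4 members rose and 0 fell (median 0.15), where 18% of all genes were called higher and 20.7% lower (38.7% in either direction). The median was 0.07 without fasted replicate 3, 0.09 without fed replicate 3, 0.23 without fasted replicate 1 and 0.24 without fed replicate 4. Without overlap, 4 members were higher and 2 lower, against 14.6% and 21.9% of all genes. Rpl22l1 rose by 0.77 ± 0.20 (adjusted p = 0.0032), from 2.07, 2.33, 2.42 and 2.94 CPM to 3.06, 3.8, 4.27 and 5.06 CPM, without overlap. The others were Rpl37rt (0.71 ± 0.19), Rpl24 (0.58 ± 0.17) and Rps28 (0.47 ± 0.19). At 24 h, 1 rose and 3 fell (median -0.04), where 11.6% of all genes were called higher and 12.4% lower (24% in either direction). Without overlap, 2 members were higher and 1 lower, against 11.9% and 13.2% of all genes. Rpl37rt, a retrotransposed copy of Rpl37, had the largest difference of any member and comparison of fasting, 1.01 ± 0.19 (adjusted p = 0.00041). Its fed libraries were at 6.47, 6.91, 8.45 and 9.42 CPM and its fasted libraries at 13.3, 15.5, 15.6 and 17.7 CPM. Rpl5 fell by 0.59 ± 0.19 on the log2 scale (adjusted p = 0.027), from 112, 115, 160 and 170 CPM to 80.5, 81.4, 95.8 and 109 CPM. Rpl21 fell by 0.47 ± 0.16 (adjusted p = 0.03) and Rpl27a by 0.44 ± 0.16 (adjusted p = 0.039). These 3 rest on single libraries: no member was called lower without fed replicate 2 or fasted replicate 3, and 1 without fasted replicate 1 or 2, while Rpl37rt was called higher in each case. By library totals only 1 member was called, and the median was 0.04.

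**Figure D2:**
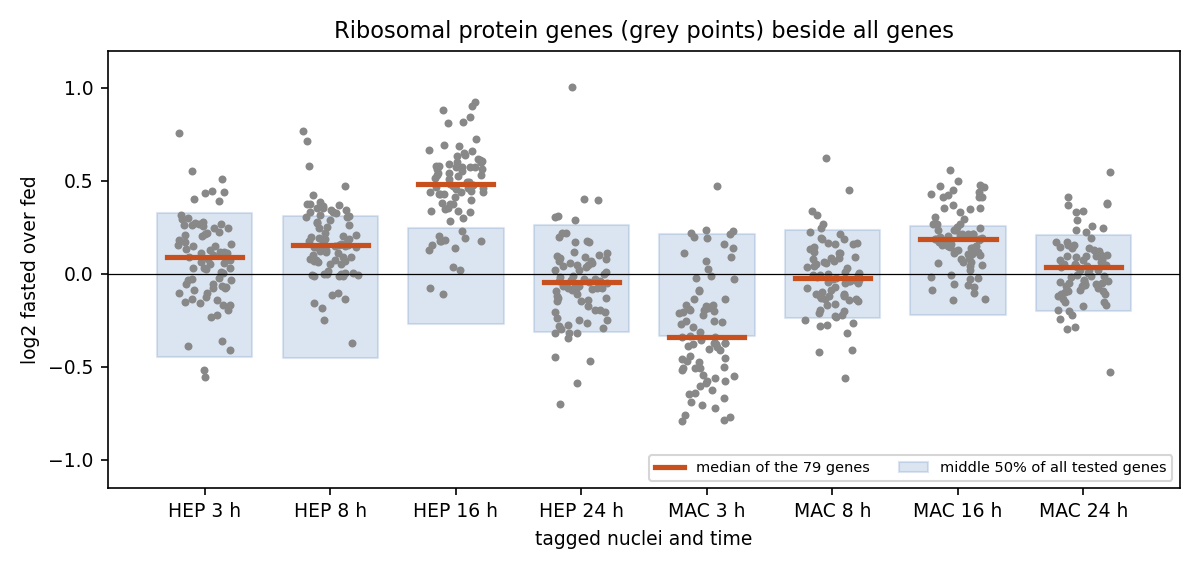
Log2 difference of fasted over fed (vertical axis) for each of the 79 tested genes (grey points) in each comparison (horizontal axis), with their median as an orange bar and the middle 50% of all tested genes as a blue box. The members' median leaves the box at 16 h in hepatocyte nuclei, at 0.49, and just below it at 3 h in macrophage nuclei, at -0.34.

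Fed hepatocyte nuclei differed between the times of day. Summed core levels were 777 ± 33.7 CPM at ZT15, 834 ± 128 at ZT20, 690 ± 29.2 at ZT4 and 1000.3 ± 149 at ZT12 (SD, n = 4). The fed mean at ZT4, the time of the 16 h comparison, was thus the lowest and that at ZT12 the highest. The ZT20 libraries, at 689 to 999 CPM, overlapped those at ZT4 (654 to 723) and those at ZT12 (833 to 1195). The sums themselves were not tested. In fasted hepatocyte nuclei the sums were 759 ± 67.7 CPM at 3 h, 888 ± 98.3 at 8 h, 920 ± 210 at 16 h and 890 ± 90.6 at 24 h. The fasted means at 8, 16 and 24 h lay within each other's spread. By fed means, 66 of the 79 members were lowest at ZT4, where 24.1% of 12942 tested genes were, and 64 were highest at ZT12, where 26.2% of those genes were. In fed macrophage nuclei 52 of the 79 were highest at ZT12, where 31.3% of 13864 tested genes were, while 31 were lowest at ZT15 and 26 at ZT4, where 26.7% and 20.5% of those genes were. The summed core levels of fed macrophage nuclei were 606 ± 40.4 CPM at ZT15, 624 ± 38.5 at ZT20, 618 ± 15.6 at ZT4 and 697 ± 15.2 at ZT12. Mean fed levels were thus highest at ZT12 in both cell types, and the low mean at ZT4 was seen in tagged hepatocyte nuclei. The single fed pools at ZT15, ZT20, ZT4 and ZT12 were at 759, 691, 724 and 775 CPM in the hepatocyte line. In the macrophage line they were at 613, 524, 559 and 690 CPM. The pools of both lines were thus highest at ZT12 and lowest at ZT20. With edgeR's quasi-likelihood test 17 members differed between the fed times, 21.5% of the 79, while 30.1% of all genes did, and 16 of the 17 were lowest at ZT4 and 16 highest at ZT12. The smallest adjusted p was that of Rps18 (0.00052), whose fed means went from 14.8 CPM at ZT4 to 24.8 CPM at ZT12. Rpl5 (adjusted p = 0.0016) and Rpsa (0.044) were also among them. The ratio of highest to lowest fed mean had a median of 1.38 over the members. The count of 17 was 9, 2, 37 and 12 of the 79 without replicate 1, 2, 3 and 4. Of all genes, 17.6%, 16.6%, 29.2% and 21% were called in these fits. The members' share was thus above that of all genes without replicate 3 and under it in the other fits.

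The size of the fasting difference itself varied with time for 8 members in hepatocyte nuclei, 10.1% of the 79 against 32.8% of all genes: Rpl3, Rpl21, Rps12, Rps9, Rps15a, Rps18, Rpl17 and Rps19. Rpl3 had the smallest adjusted p (0.0066), with log2 differences of -0.52 at 3 h, 0.00 at 8 h, 0.84 at 16 h and -0.32 at 24 h. The 4 comparisons use separate fed groups, and the count was 0, 2, 6 and 4 without replicate 1, 2, 3 and 4. Of all genes, 17.5%, 19.9%, 23.8% and 24.2% were called in these fits.

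**Figure D3:**
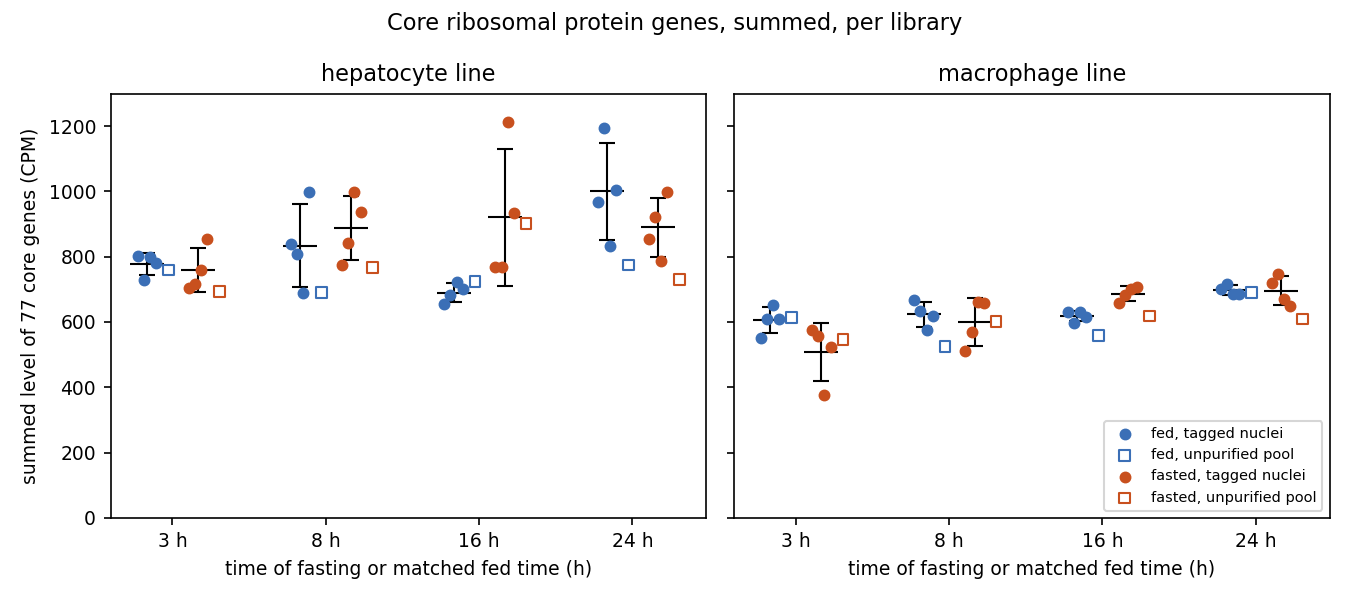
Summed level of the 77 core genes (vertical axis, CPM) in every library by time (horizontal axis), fed in blue and fasted in orange; filled points are tagged nuclei, open squares unpurified pools, bars the mean ± SD of 4 libraries. Fasted hepatocyte libraries at 16 h lie at 767 to 1213 CPM, above the fed ones at 654 to 723 CPM, and 1 fasted macrophage library at 3 h lies at 377 CPM.

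The same question in macrophage nuclei gave few calls. At 3 h, 5 members fell and 0 rose, where 4.68% of all genes were called lower and 7.7% higher (12.4% in either direction). Without overlap, 0 members were higher and 6 lower, against 9.36% and 6.07% of all genes. The median of the 79 was -0.34, with 66 negative, against -0.05 for all genes. All 5, Rpl12, Rpl10, Rpl13, Rpl27a and Rpl3, are large subunit genes that hold a snoRNA. Of the 79, 40 are large subunit genes and 29 hold a snoRNA. The median was -0.35 for large and -0.36 for small subunit genes, and -0.45 with and -0.26 without a snoRNA. Rpl3 fell by 0.67 ± 0.17 on the log2 scale (adjusted p = 0.012), from 26.3, 29, 31.8 and 31.9 CPM in fed to 10.2, 20, 22.3 and 24 CPM in fasted libraries, without overlap. Rpl12, which lies at the stalk base, fell by 0.79 ± 0.25 (adjusted p = 0.035), from 5.95, 6.84, 8.9 and 9.15 CPM to 1.36, 4.45, 5.54 and 6.78 CPM, and here 1 fasted library overlapped. Rpl10 fell by 0.72 ± 0.22 (adjusted p = 0.032) and Rpl13 by 0.69 ± 0.22 (adjusted p = 0.04). Of the related lists, 0 of the 20 other TOP genes rose and 2 fell (median -0.13), and 0 of the 50 assembly genes rose and 1 fell (median -0.25).

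One library weighs on that result. The core sum of macrophage fasted 3 h replicate 3 was 377 CPM, against 522 to 575 CPM in the other 3 fasted libraries and 552 to 651 CPM in the fed ones. It held the lowest values of its group for Rpsa, at 2.71 CPM against 12 to 14.2 CPM, and for Rpl18, listed at 0 against 2.15 to 3.68 CPM, both named after their values were seen. In it the ratio of summed large to small subunit genes was 2.34 against 1.54 to 1.64. Without it 1 member was called, lower, of 5.05% of all genes, and the median was -0.17 with 61 of 79 negative. A fit to the 8 libraries of that time called 0 members. Leaving out another library gave 1 to 12 calls, all lower, with the percentage of all genes called in either direction in brackets. The count was 1 without fasted replicate 4 (10.8%) or fed replicate 3 (6.93%) and 3 without fed replicate 4 (8.01%). It was 4 without fed replicate 1 (8.5%) or 2 (8.91%), 9 without fasted replicate 2 (19.5%) and 12 without fasted replicate 1 (15.7%). In each of these fits the members' share of the 79 was under that of all genes. The summed hepatocyte markers also stood apart, at 9634 to 19385 CPM in the fasted macrophage libraries and 4872 to 8280 CPM in the fed ones, with the highest value in replicate 3. All 10 of them were detected, and their part in the result was not tested. The 1423 other tested genes of at most 5 kb had a median of -0.30.

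Later in the fast, macrophage nuclei changed in 3 members at 8 h, 1 at 16 h and 0 at 24 h, where 12.8%, 13.7% and 11.7% of all genes were called. At 8 h, 1 member rose and 2 fell, against 7.44% and 5.4% of all genes, and without overlap 0 were higher and 6 lower, against 12.3% and 9.18%. Rpl3 fell by 0.56 ± 0.17 (adjusted p = 0.029), from 30.4, 34.2, 37.7 and 39.7 CPM to 20.4, 24.5, 24.7 and 26 CPM, again without overlap. Rps15a fell by 0.41 ± 0.14 (adjusted p = 0.045) and Rpl37rt rose by 0.62 ± 0.20 (adjusted p = 0.037). None of the 3 calls was made without fed replicate 1, 2 or 4 or fasted replicate 3, and 1 without fasted replicate 1. At 16 h 1 member rose and 0 fell, against 7.72% and 5.99% of all genes, and without overlap 8 were higher and 0 lower, against 9.17% and 8.5%. The 1 called with edgeR was Rps6, at 0.41 ± 0.13 (adjusted p = 0.034). Its fed libraries were at 10, 12, 14 and 14.1 CPM and its fasted ones at 13.6, 16.1, 17.1 and 18.6 CPM, which overlapped. The summed core level at 16 h was nonetheless apart, at 659 to 708 CPM in fasted and 596 to 630 CPM in fed libraries, and 68 of 79 differences were positive (median 0.19). The count of called members was 0 to 2 when 1 library was left out. Hepatocyte markers other than the fasting-induced Pck1 and G6pc were also apart in macrophage nuclei, at 7117 to 8365 CPM fasted against 3513 to 5397 CPM fed at 8 h and at 5594 to 7399 against 4263 to 5435 CPM at 16 h, and their part in these results was not tested. Of the 50 assembly genes 10 rose and 0 fell at that time. At 24 h 0 members rose or fell with edgeR, and 0 with DESeq2, against 5.31% and 6.35% of all genes, 4 were higher and 0 lower without overlap, against 11.5% and 8.37%, and 5 members had an unadjusted p under 0.05. The 3 smallest p belonged to Rpl37rt (0.55 ± 0.20, adjusted p = 0.075), Rpl7 and Rps14. No member had a fasting difference that varied with time by the test, where 4.65% of all genes did and 18 members had an unadjusted p under 0.05, and 2, Rpl14 and Rpl5, differed between fed times, where 12.8% of all did.

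Whether fasting acted differently in the cell types was tested directly as the difference of the 2 effects. At 3 h it was larger in hepatocyte than in macrophage nuclei for 3 members, and smaller for 0, where 6.2% and 4.4% of all genes were called (10.6% in either direction). The smallest p was that of Rps18, at 0.93 ± 0.22 (adjusted p = 0.0045). For Rps18 the hepatocyte libraries went from 13, 15, 16.5 and 18.1 CPM fed to 19.7, 20.2, 20.7 and 20.8 CPM fasted, and the macrophage libraries from 10.4, 10.7, 11.4 and 13 CPM to 4.36, 8.97, 9.68 and 11.1 CPM. At 8 h the only call was Rpl22 (0.53 ± 0.18, adjusted p = 0.0497), where 3.86% of all genes were called in that direction and 7.62% in either. At 16 h, the time of the 30 calls in hepatocyte nuclei, 0 members were called with edgeR and 0 with DESeq2, and 0.535% of all genes were, while 12 members had an unadjusted p under 0.05. The smallest p was that of Rpl3, at 0.93 ± 0.29 (adjusted p = 0.14), followed by Rps9 at 0.83 ± 0.30 (adjusted p = 0.26), and the median over the members was 0.35. The difference of fasted from fed at 16 h is therefore not shown to differ between the cell types. At 24 h 0 members were called with edgeR or DESeq2, with 3 at an unadjusted p under 0.05, and 4.05% of all genes. The 3 calls at 3 h came to 1 with another scaling (relative log expression, RLE, in edgeR), to 1, 2 and 1 without replicate 1, 2 and 3, and to 0 without replicate 4, and the call at 8 h was lost without any 1 replicate. Of all genes, 6.5%, 7.28%, 5.12% and 3.49% were called at 3 h without replicate 1, 2, 3 and 4.

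**Figure D4:**
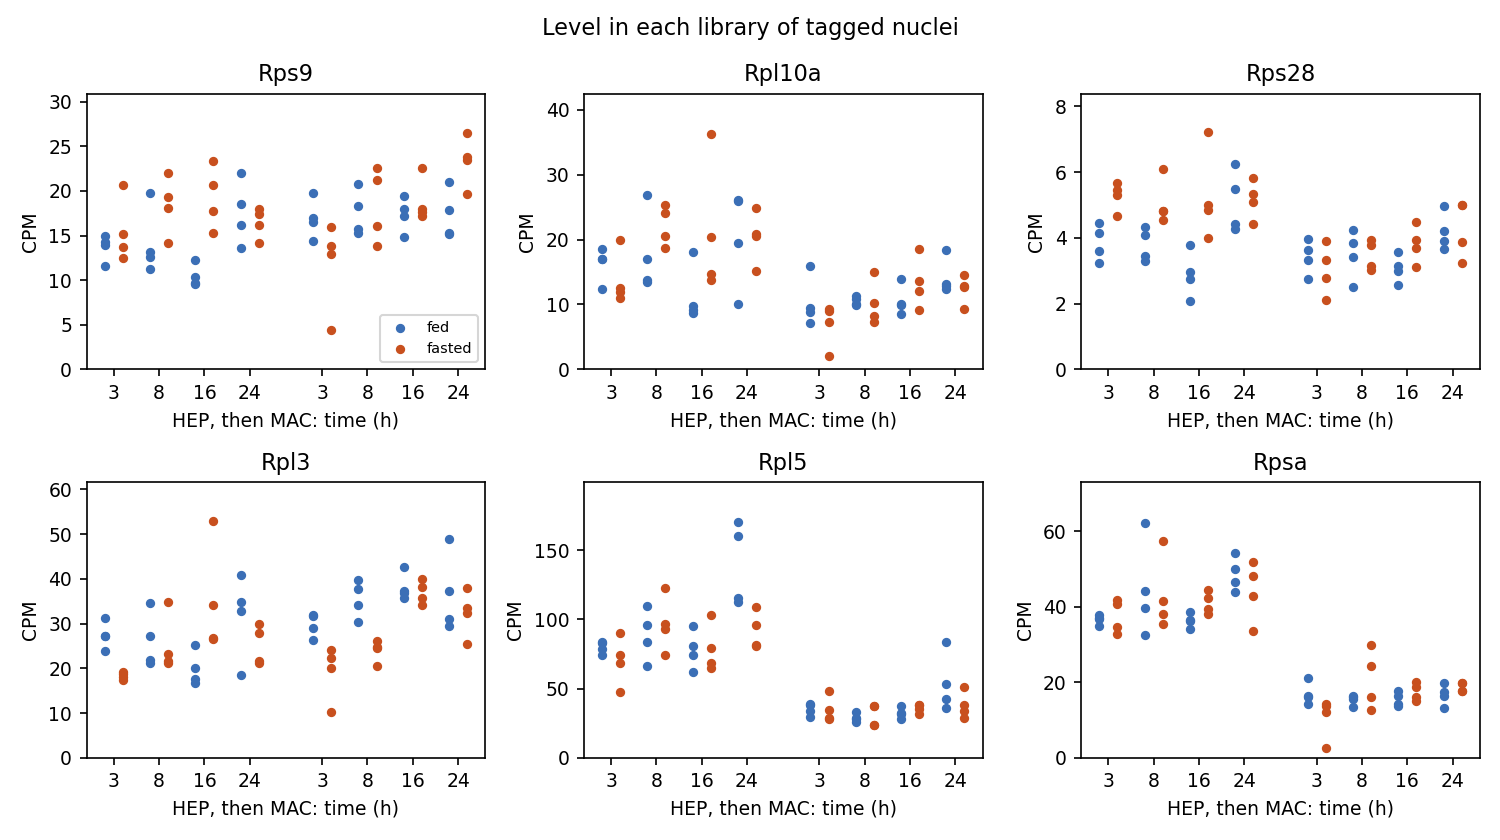
Level (CPM, vertical axis) of 6 genes in each of the 64 libraries of tagged nuclei by time (horizontal axis), hepatocyte (HEP) then macrophage (MAC), fed in blue and fasted in orange. Rps9 and Rps28 are apart at 16 h in hepatocyte nuclei, Rpl3 is apart at 3 and 8 h in macrophage nuclei, and Rpl5 and Rpsa lie higher in hepatocyte nuclei.

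In fed mice, tagged nuclei of the hepatocyte line held more RNA of most members than tagged nuclei of the macrophage line. The unpurified fed pools of the lines, which hold all liver cells, differed the same way: their summed core level had a mean of 737 CPM in the 4 pools of the hepatocyte line and 597 CPM in the 4 of the macrophage line, a log2 difference of 0.31, against 825 and 636 CPM and 0.38 in tagged nuclei. In the pools 68 of the 79 members were higher in the hepatocyte line, with a median of 0.20 on a log2 scale with 0.5 CPM added, where 43.3% of 14011 tested genes were, with a median of -0.03. Each cell type came from its own line and its own runs of library numbers, so cell type, line and run cannot be told apart in the values that follow. Of the 79, 43 were higher and 4 lower in hepatocyte nuclei, where 42.7% of all genes were called higher and 40% lower (82.7% in either direction). The median of the members was 0.21, against 0.05 for all genes. The 1456 other tested genes of at most 5 kb had a median of 0.18, against 0.22 for the 67 members of that length. Calls were 24 higher and 2 lower among the 40 large subunit genes and 14 higher and 2 lower among the 30 of the small subunit. Rpl5 and Rpsa stood furthest apart, at 1.32 ± 0.11 (adjusted p = 1.4e-16) and 1.31 ± 0.12 (adjusted p = 4.2e-15) on the log2 scale. The 16 fed hepatocyte libraries had Rpsa at 32.5 to 62.3 CPM and the 16 fed macrophage libraries at 13.3 to 21.1 CPM. In the fed pools Rpsa was at 35.2 to 44.9 CPM in the hepatocyte line and 17.5 to 23.4 CPM in the macrophage line, and Rpl5 at 58.9 to 86.3 and 34.9 to 46.8 CPM, and for both genes the pools of the lines did not overlap. Rpl27a (0.89 ± 0.07, adjusted p = 2.9e-16) and Rps2 (0.80) came next, and Rpl27a, Rps2 and Rpsa were the only members whose 16 and 16 libraries did not overlap, where 10.2% of all genes were higher without overlap. Of the paralogs, Rps27l, a p53 target, was higher in hepatocyte nuclei by 0.62 ± 0.10 (adjusted p = 1.1e-07) and Rpl7l1 by 0.23 ± 0.05. Rps6, Rps3 and Rps4x were at -0.01 ± 0.08, -0.08 ± 0.07 and -0.02 ± 0.11.

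The genes lower in hepatocyte nuclei were Rpl3 (-0.47 ± 0.10, adjusted p = 4.2e-05), Rps9 (-0.37 ± 0.10, adjusted p = 0.0011), Rps29 (-0.37 ± 0.11, adjusted p = 0.0015) and Rpl21 (-0.30). In the fed pools the differences between the lines were 0.25 for Rpl3, 0.53 for Rps9, 0.12 for Rps29 and -0.00 for Rpl21. With library totals in place of TMM, 16 members were higher and 8 lower, and the median was 0.05, so the balance of directions depended on the scaling. Fed macrophage libraries held hepatocyte markers at 3967 to 10765 CPM, against 12395 to 24872 CPM in fed hepatocyte libraries. Their part in the size of the differences was not tested. In the lists, 11 of the 20 other TOP genes were higher and 1 lower in hepatocyte nuclei. Of the 77 mitochondrial ribosomal proteins 56 were higher and 7 lower (median 0.38).

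The comparison of tagged nuclei with the unpurified pools of the same line asks what purification changes. Fewer cells of a type and less RNA per cell cannot be told apart in such pools. In the macrophage line 11 members were higher and 6 lower in tagged nuclei, where 37.2% and 40% of all genes were called. Rpl3 was higher by 0.94 ± 0.10 (adjusted p = 6.2e-11), Rps9 by 0.83 ± 0.13 (adjusted p = 2.6e-07), Rps29 by 0.62 ± 0.12 (adjusted p = 2.3e-05) and Rps3 by 0.51 ± 0.09 (adjusted p = 3.4e-06). Rps9 was at 8.64 to 10.9 CPM in the 8 macrophage line pools. Rps27l was at -0.52 ± 0.10 (adjusted p = 2.2e-05) and Rpl24 at -0.32 ± 0.07 (adjusted p = 0.00019). Rpl3, Rps9 and Rps29, the 3 highest here, were also lower in hepatocyte than in macrophage nuclei, although both comparisons use the fed macrophage libraries. The balance moved with the scaling, to 16 higher and 2 lower with library totals and to 10 and 10 with DESeq2. The count of 17 was 32 without replicate 3, where 81.5% of all genes were called.

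In the hepatocyte line, 11 members were higher and 0 lower in tagged nuclei than in the pools, where 28.9% and 20.5% of all genes were called. The median was 0.09, under that of all genes (0.12). Rpl36 (0.45 ± 0.15), Rpl37 (0.33 ± 0.12) and Rpl5 (0.31 ± 0.13) had the largest differences. With library totals 0 were higher and 3 lower, so no direction can be given for the members in this comparison. Without replicate 4 the count was 7, where 49.4% of all genes were called.

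**Figure D5:**
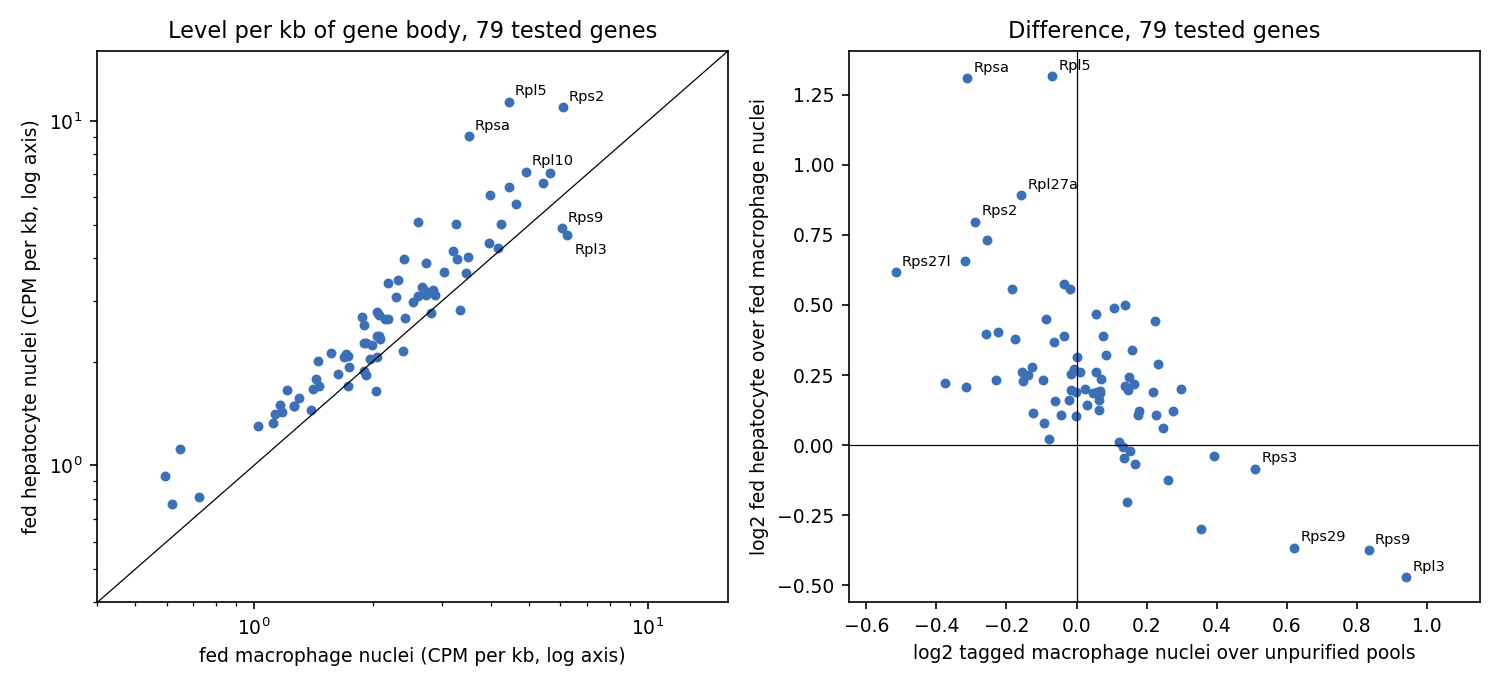
Left, level per kb of gene body in fed hepatocyte (vertical) against fed macrophage nuclei (horizontal), both on log axes, for the 79 tested genes with the line of equality. Right, log2 difference of fed hepatocyte over fed macrophage nuclei (vertical) against tagged macrophage nuclei over pools (horizontal), which share the fed macrophage libraries; Rpl3, Rps9 and Rps29 are at the lower right and Rpl5 and Rpsa at the top.

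The pools give a view of whole liver with 1 library per line, time and feeding state. Over the 4 times and 2 lines, 2 members were higher and 1 lower in fasted pools, where 12.4% and 15.1% of all genes were called. Rpl37rt was higher by 0.42 ± 0.10 (adjusted p = 0.0094), Rpl18 by 0.37 ± 0.13 (adjusted p = 0.047), and Rpl10 fell by 0.28 ± 0.09 (adjusted p = 0.038). At 16 h, 69 of 79 members were higher in the fasted than in the fed pool of the hepatocyte line (median 0.29 on a log2 scale with 0.5 CPM added) and 57 of 79 in the macrophage line (median 0.19), where 49.7% and 51.2% of 13006 tested genes were higher. At 8 h the members also stood higher in the fasted pools, 60 of 79 in the hepatocyte line (median 0.14) and 64 of 79 in the macrophage line (median 0.22), where 49.7% and 51.8% of the tested genes were higher. At 3 h 31 and 28 of 79 were higher, where 48.8% and 45.8% of the tested genes were. At 24 h 26 and 17 of 79 were higher (medians -0.09 and -0.16), where 50.7% and 49.8% of the tested genes were. A single pair of pools has no replicate check. The summed core level at 16 h was 902 CPM fasted and 724 CPM fed in the hepatocyte line, and 618 and 559 CPM in the macrophage line.

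The authors' deposited tables of selected genes list 27 members among 4745 rows for hepatocyte nuclei and 4 members, Rpl3, Rps9, Rps3 and Rps29, among 3762 rows for macrophage nuclei. In the authors' deposited table Rpl10a was at 0.92 on the log2 scale at 16 h with an adjusted p of 0.028. In the authors' deposited table for macrophage nuclei Rpl3 was at -0.66 at 3 h (adjusted p = 0.02) and -0.62 at 8 h (adjusted p = 0.032). The labels do not say how the genes of these tables were selected, so a member missing from them says nothing of its level.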

How the data were processed

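Total nuclear RNA was sequenced as 50 bp paired-end reads without poly(A) selection. Per the submitters' processing notes, STAR 2.4.2a, DESeq2 1.24.0 and mm10 were used; neither the counter nor its strand setting is named there or in the labels. The authors deposited raw read counts of 20105 genes over whole gene bodies (length was end minus start for 100% of rows). Their other deposited tables hold a signal (counts divided by 1 size factor per library), log2 fold changes and adjusted p-values, used here only where named.

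Groups follow the sample titles, and replicate numbers are in accession order. The main test was edgeR 4.0.16 (quasi-likelihood, robust, TMM, filterByExpr with minimum count 10 and total 15, R 4.3.3), fitted over all genes of a comparison with Benjamini-Hochberg adjustment and a threshold of 0.05; ± after a log2 difference is the SE. For pools by time, 0.5 CPM was added before log2. Alternatives were RLE scaling, no filter, library totals (added after seeing the data), DESeq2 1.42.0, a block of library-number runs, the 8 libraries of 1 time alone, and leaving out each replicate. On data simulated for hepatocyte nuclei at 16 h (12776 genes), 67% of 100 genes changed 2-fold and 23.2% of 99 changed 1.5-fold were recovered. The 96 pairs of replicates differed by more than sampling noise (chi-square per degree of freedom 11.9 or more).

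The members and lists were chosen with earlier results of these data known. Named genes were a panel by role, the 3 highest and 3 lowest called members of a comparison with a mean of at least 1 CPM (or the 3 smallest p), and up to 4 called genes of each list; a few others were named after their values were seen. A few genes are counted but not reported here by name.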

Additional observations from a re-analysis of the deposited data

Results flagged for a closer look

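The ratio of summed large to small subunit genes in the macrophage library fasted 3 h, replicate 3, was 2.34, against 1.54 to 1.64 in the other libraries of its group. The gap was 0.877 of the group's range, above Dixon's 95% critical value for 4 samples. Of 32 such tests 1 passed, and chance passes about 1 in 20.

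The fasting effect differed between cell types by the interaction test at 3 h for Rps18 (0.93), larger in hepatocyte nuclei, and at 8 h for Rpl22 (0.53). In all, 3 members were called at 3 h and 1 at 8 h, where 10.6% and 7.62% of all genes were. No member was called at 3 h without replicate 4, and none at 8 h without any 1 replicate. The 3 h macrophage libraries include the library above.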

How the results depend on the processing

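No called value of a named member reversed. Several summaries near 0 did change sign. The members' median went from 0.09 to -0.11 at hepatocyte 3 h, from -0.04 to 0.04 at hepatocyte 24 h and from 0.09 to -0.04 for hepatocyte tagged against pools, each with library totals. It went from -0.04 to 0.05 at hepatocyte 24 h without fed replicate 2, from -0.02 to 0.05 at macrophage 8 h without fasted replicate 1 (0.01 without fasted replicate 2 and 0.00 without fed replicate 1), and from 0.05 to -0.01 for macrophage tagged against pools without replicate 4. The log2 difference of the summed core level went from -0.04 to 0.03 at hepatocyte 3 h with RLE, from -0.06 to 0.01 at macrophage 8 h without fasted replicate 1, and from -0.00 to as much as 0.03 at macrophage 24 h when 1 replicate was left out. Of 5162 values of named members under alternatives, 4895 kept their side of the threshold, 206 lost the call and 61 gained it. Direction was compared only where a value was called in the main fit or in the alternative. Counts of called members moved as follows. With the 8 libraries of 1 time alone, hepatocyte 3 h went from 4 to 9, hepatocyte 16 h from 30 to 1, macrophage 3 h from 5 to 0 and macrophage 16 h from 1 to 0. With library totals, hepatocyte 24 h went from 4 to 1, hepatocyte fed time of day from 17 to 9, macrophage 3 h from 5 to 8, macrophage 16 h from 1 to 0, macrophage fed time of day from 2 to 1, the cell type difference from 3 to 1 at 3 h and from 1 to 0 at 8 h, fed hepatocyte against macrophage from 47 to 24, and hepatocyte tagged against pools from 11 to 3. Without the filter on low counts, hepatocyte fasting by time went from 8 to 5, macrophage 16 h from 1 to 0, and the cell type difference from 3 to 1 at 3 h, 1 to 0 at 8 h and 0 to 1 at 24 h. DESeq2 gave 9 at macrophage 3 h and 2 at macrophage 16 h, and RLE scaling gave 1 for the cell type difference at 3 h. The cause was not tested.

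The replicate block was a run of consecutive library numbers, split here where the order of times begins again. In macrophage nuclei such a run holds 1 fasted and 1 fed library of each time. The titles name no runs, and the labels do not say what a run shares. With the block, macrophage 24 h went from 0 to 1 called members and hepatocyte 16 h from 30 to 24.

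Leaving out 1 replicate gave 2 to 5 called members at hepatocyte 3 h, 3 to 6 at 8 h, 5 to 46 at 16 h and 1 to 6 at 24 h, 0 to 6 for hepatocyte fasting by time and 2 to 37 for fed time of day. In macrophage nuclei it gave 1 to 12 at 3 h, 0 to 3 at 8 h, 0 to 2 at 16 h, 0 to 0 at 24 h, and 0 to 3 for fed time of day. It gave 0 to 2 for the cell type difference at 3 h and 0 to 0 at 8 h, 33 to 57 for fed hepatocyte against macrophage, 7 to 13 for hepatocyte tagged against pools and 13 to 32 for macrophage tagged against pools. The share of all genes called moved too, from 11.4% to 19.5% at hepatocyte 16 h and from 5.05% to 19.5% at macrophage 3 h. Over all genes, the count at 16 h in hepatocyte nuclei went from 2343 to 885 with 8 libraries alone, that at 3 h in macrophage nuclei from 1716 to 247, that at 16 h from 1901 to 989, and that of hepatocyte tagged against pools from 49.5% of all genes to 3582 genes with library totals; the cell type difference at 16 h went from 75 to 48 without the filter and 148 with DESeq2.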
